A study of Mus musculus with 25 samples.

Results

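The 10 interneuron identity genes Gad1, Gad2, Slc32a1, Lhx6, Sst, Npy, Cck, Vip, Pvalb and Reln were chosen by name, as genes that mark inhibitory neurons and their subtypes, and all 10 were found among the 24411 genes of each of 3 tables. Together the tables held 25 libraries of nuclear RNA from mouse hippocampus, 1 for each mouse, and every mouse was a male of the C57BL/6 strain. Nuclei had been sorted for DNA stain and for NeuN, the neuronal protein encoded by Rbfox3, so the sort did not separate types of neurons. Genes of other cell types were also read, as given below. In the aging experiment, wild-type mice were 3 months (young, 3 libraries) or 18 months old (aged, 2 libraries). In the overexpression experiment, young mice of 2 to 3 months carried lentivirus in CA1 and the dentate gyrus, and the virus encoded either Ftl1 (ferritin light chain 1) with eGFP (Ftl1 OE, 7 libraries) or GFP without Ftl1 (OE control, 5 libraries), both under the neuronal synapsin-1 promoter. In the knockdown experiment, mice of 18 months received virus with a short hairpin RNA against Ftl1 (Ftl1 KD, 4 libraries) or against luciferase (KD control, 4 libraries) in the same regions. The virus reached part of the hippocampus, whereas the sort took neuronal nuclei whether or not they carried it.

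Inhibitory neurons make and release GABA, and they are a minority among the excitatory granule and pyramidal cells of the hippocampus. Gad1 and Gad2 encode the enzymes that make GABA from glutamate, Slc32a1 encodes the transporter that loads it into vesicles, and Lhx6 is a transcription factor of interneurons born in the medial ganglionic eminence. Neuropeptides and the calcium-binding protein parvalbumin divide interneurons into subtypes, although Cck and Npy are also transcribed in some excitatory neurons and Reln is also made by Cajal-Retzius cells.

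Values are normalized counts, that is reads divided by the size factor of a library, and each table was normalized on its own, so that levels are compared within a table. Reads per library ran from 7969282 to 9537872 in the aging table and from 9943996 to 17034325 in the overexpression table. The knockdown libraries were far shallower, with 103394, 358560, 68092 and 318645 reads in KD controls 1, 2, 3 and 5 and 97104, 96831, 48902 and 59886 reads in the libraries labelled Ftl1 KD 1, 3, 4 and 5. Ftl1 was read first in each experiment, as a check of the labels. Its normalized count in the OE controls was 7315, 4580, 28310, 7415 and 9953 (libraries 9901, 9904, 9905, 9925 and 9926), and in the 7 libraries labelled Ftl1 OE it ran from 4737 to 7663 with a median of 5171. KD controls held 49.1, 45.6, 56.2 and 24.2 normalized counts of Ftl1, against 117, 106, 109 and 140 for libraries labelled Ftl1 KD. Ftl1 was 1685, 1925 and 2141 in young and 4247 and 4272 in aged libraries. Ftl1 RNA was thus not higher in the libraries labelled overexpression and was higher in every library labelled knockdown than in every control, which goes against both labels at the level of RNA, and directions below follow the labels only. The tables hold no protein. By western blot of hippocampus, the paper reports more FTL1 protein with the overexpression virus and less with the knockdown virus, the direction of both labels.

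Some libraries of the overexpression table stood apart before any member was compared. The median Spearman correlation of a library with the other 11 was 0.858 for OE control 9905, 0.869 for OE control 9926 and 0.890 for 9918, labelled Ftl1 OE, and between 0.910 and 0.953 for the rest. Malat1, a noncoding RNA kept in the nucleus, took 0.138% of the reads in 9905 and 0.213% in 9926, against 0.319% to 1.77% in the other libraries, with 9918 at the top. Fewest genes had a read in 9905 (12281). Genes of other cells were also read, as Mbp of oligodendrocytes averaged 25620 normalized counts in this table, beside 21060 for Slc17a7 of excitatory neurons. In the aging table these means were 2105 and 1424. The summed level of genes of neighbouring regions, led by Ttr, was 108987 in 9901 and 2623 in 9918. The part of such RNA in the spread of the members was not tested. Differences between groups and relations with Gad1 that rest on 9905 and 9926 are given with and without them, a choice made after the data were seen. SDs, levels per kilobase and ranks of genes by correlation are given with both libraries included.

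Levels of different genes were compared as normalized counts per kilobase of the longest coding transcript. Over the 12 overexpression libraries, Cck was the most abundant member at 15601 ± 11060 (SD, n = 12) per kilobase. Npy (4037 ± 1864) and Sst (3966 ± 2523), the neuropeptide Y and somatostatin genes, came next and did not differ beyond their spread. Gad1 followed at 895 ± 256, above Pvalb (316 ± 237) and Vip (170 ± 100), whose ranges overlapped. The lowest levels per kilobase were those of Gad2 (85.4 ± 34.6), Lhx6 (43.2 ± 28.4), Reln (31.9 ± 11.2) and Slc32a1 (27.0 ± 19.7). The same 4 genes, Cck, Npy, Sst and Gad1, led in the 5 aging libraries, in that order, and in the 8 knockdown libraries, where Sst stood before Npy. This order of Sst and Npy depended on the group. Per kilobase, Sst led in the KD controls (26.0 against 16.3) and Npy in the libraries labelled Ftl1 KD (23.0 against 19.6). Likewise, Sst led in the OE controls (5727 against 5143) and Npy in the libraries labelled Ftl1 OE (3247 against 2709). By position in GRCm38, 4 members lie on chromosome 2, which are Gad2 (22622205 to 22693874, plus strand), Lhx6 (36081953 to 36105408, minus strand), Gad1 (70553072 to 70602014, plus strand) and Slc32a1 (158610767 to 158615748, plus strand). Sst, Npy, Cck and Pvalb have coding transcripts of 721, 566, 799 and 977 bases, and those of the other members run from 1530 bases (Vip) to 11699 bases (Reln). Gad1os, an antisense gene that overlaps Gad1, held at most 8 reads in any library, and whether counting used the strand is not stated.

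Each library is a different mouse, so the spread between libraries of a group holds differences between mice as well as counting error. In the overexpression table the residual SD of log2(normalized count + 1) within groups was 0.45 for Gad1, where counting error alone gives 0.026, and 0.69 for Cck, where it gives 0.013. Vip (2.35 against 0.090) and Lhx6 (1.94 against 0.13) had the largest SDs, both because OE control 9905 held 0 reads of them. Set among all tested genes of that table, the SD of Vip stood at percentile 90.5, that of Lhx6 at 80.8 and that of Gad1 at 22.2, and the median SD was 0.66 for the members and 0.69 for all genes tested. The median SD of the members was thus not above that of all genes tested. Those genes were not matched to the members by level, so the comparison cannot show whether members vary more than genes of like level. In the knockdown table, counting error alone came close to the SD found for Sst (0.36 against 0.37) and reached that of Slc32a1 (0.73 against 0.72), so that at this depth little other spread could be read for these 2 genes.

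The promoters of 3 members are shown because the comparisons below turn on these genes, Sst for its lower counts in the libraries labelled Ftl1 OE, and Cck and Gad1 for their opposite directions in the knockdown table. RefSeq promoters (GRCm38.p6) of 300 bases, from 250 before to 50 after a transcription start, were matched for all 10 members, with 13 promoters in all. Capitals mark the motifs that were found among 4 searched on both strands, namely the cyclic AMP response element TGACGTCA, the E-box CACGTG, the core promoter element TATAAA and the homeodomain core TAATTA.
Sst, chr16:23890795-23891094, minus strand: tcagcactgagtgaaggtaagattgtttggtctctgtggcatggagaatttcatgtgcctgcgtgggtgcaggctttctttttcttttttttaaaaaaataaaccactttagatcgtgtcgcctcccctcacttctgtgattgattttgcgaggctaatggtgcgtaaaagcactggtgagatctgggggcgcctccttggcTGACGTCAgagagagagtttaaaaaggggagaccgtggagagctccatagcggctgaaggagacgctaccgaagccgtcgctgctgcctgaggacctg
Cck, chr9:121495645-121495944, minus strand: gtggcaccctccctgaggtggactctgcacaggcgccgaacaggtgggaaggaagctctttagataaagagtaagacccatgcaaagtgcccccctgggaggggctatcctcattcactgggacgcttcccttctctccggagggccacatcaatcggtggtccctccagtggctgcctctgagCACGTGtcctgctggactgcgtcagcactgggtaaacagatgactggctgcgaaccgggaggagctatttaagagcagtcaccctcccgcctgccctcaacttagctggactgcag
Gad1, chr2:70561879-70562178, plus strand: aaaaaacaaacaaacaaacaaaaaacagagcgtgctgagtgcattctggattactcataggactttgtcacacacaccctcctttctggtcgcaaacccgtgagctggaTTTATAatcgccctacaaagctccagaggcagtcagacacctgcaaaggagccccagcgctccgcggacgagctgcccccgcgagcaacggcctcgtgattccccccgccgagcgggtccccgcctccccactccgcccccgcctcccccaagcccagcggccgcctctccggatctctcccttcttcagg
TGACGTCA stood in the Sst promoter, 48 bases before the start, and in 1.79% of all 32851 promoters of this length. CACGTG stood in the promoters of Cck and Reln and in 7.15% of all promoters, TATAAA in those of Gad1 (here on the minus strand), Lhx6 and Vip and in 13.6%, and TAATTA in 0 of the 13 and in 5.29%. The TATAAA match lay 141 bases before the start in Gad1 and 3 bases after it in Lhx6, both against the strand of the gene. In Vip, matches lay 157, 147 and 30 bases before the start. The Gad1 window lies within the gene as GENCODE annotates it, since other Gad1 transcripts start further upstream. A match of letters does not show a bound site.

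Whether interneuron genes differ with age was asked in the 5 libraries of the aging table. With limma on log2(normalized count + 1), 0 of the 10 members and 0 of all 13712 genes tested (0%) reached an adjusted p of 0.05, and the smallest adjusted p of any gene was 0.117. At an unadjusted p under 0.05 stood 2 members and 1089 genes, and edgeR called 0 genes and DESeq2 138 (1.01%), 0 of them members. Gad1 held 1601, 1654 and 2046 normalized counts in young 1, 2 and 3 and 1182 and 1570 in aged 2 and 3. Both aged libraries lay below every young one (a log2 difference of −0.37, 95% interval −0.97 to 0.23). For Sst the young libraries gave 598, 753 and 871 and the aged ones 1127 and 1166. Both aged values stood above all young values, with a log2 difference of 0.65 (standard error 0.29, adjusted p = 0.618 from limma). Counts of Lhx6 were 167, 139 and 134 among young libraries, then 0 and 81.8 among aged ones. The fitted log2 difference of −4.01 depends on the 0 reads of aged 2, where 3 reads are a CPM (reads scaled to equal library totals) of 0.345, and without aged 2 it was −0.83. Vip, the gene of vasoactive intestinal peptide, was 482, 466 and 493 in the young and 185 and 389 in the aged libraries. The aged libraries differed more from each other in Vip than the young ones did, and both lay below them.

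Groups of the aging table did not overlap for 7 of the 10 members, where this held for 24.7% of all genes tested. Of these 7, Gad1, Gad2, Lhx6 and Vip were lower and Sst, Npy and Cck higher in the aged libraries. Between young and aged libraries, an exact two-sided permutation test cannot give a p below 0.1, which 4 members (Gad1, Lhx6, Sst and Vip) reached. Over the members, 5 were higher and 5 lower with a median log2 difference of −0.064, beside −0.025 over all genes tested. In bulk nuclei, fewer cells of a type and less RNA per cell cannot be told apart. Other measures were also apart between these groups, since Rn45s, the precursor of ribosomal RNA, took 2.63% to 4.0% of the reads in young and 5.91% to 6.42% in aged libraries (log2 difference 0.88), and Slc17a7 of excitatory neurons (0.61) and Rbfox3 (0.41) were higher in both aged libraries. The part of these measures in the members' differences was not tested. Slc32a1 rested on 17 to 55 reads and Pvalb on 42 to 75 reads per library, and for Slc32a1, Pvalb and Reln the groups overlapped.

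**Figure D1:**
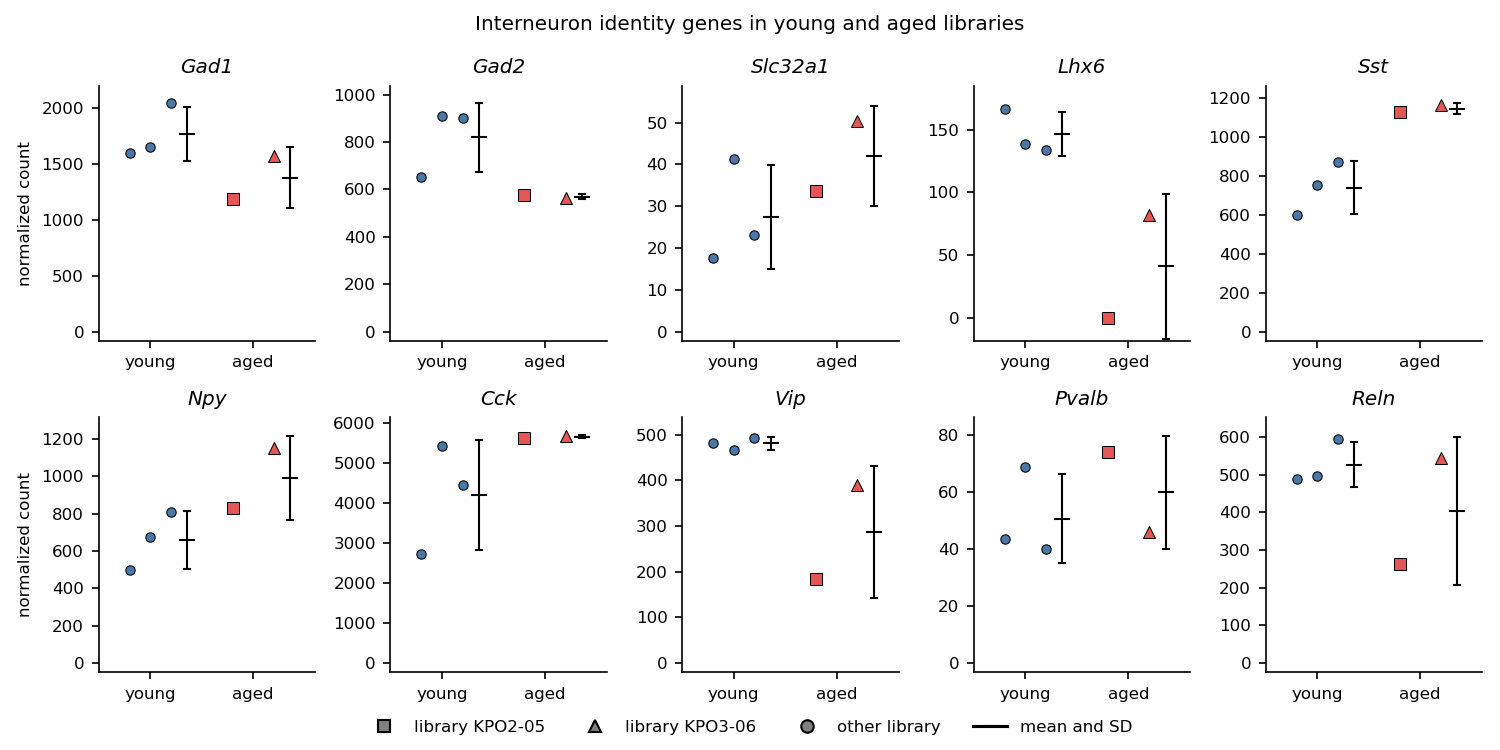
Normalized counts of the 10 members in 3 young and 2 aged libraries, 1 panel per gene, with a point for each library and a bar for the mean and SD of each group. Gad1, Gad2, Lhx6 and Vip are lower in both aged libraries and Sst, Npy and Cck are higher, with 0 of the 10 past an adjusted p of 0.05.

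In the overexpression table, 0 of the 10 members and 0 of 14099 genes (0%) reached an adjusted p of 0.05 with limma, where the smallest adjusted p of any gene was 0.499, and 3 members and 1023 genes stood at an unadjusted p under 0.05. Somatostatin was the member whose groups differed most clearly. Sst held 2518, 3382, 8165, 2456 and 4125 normalized counts in OE controls 9901, 9904, 9905, 9925 and 9926, and from 1708 to 2370 with a median of 1879 in the 7 libraries labelled Ftl1 OE. Every library labelled Ftl1 OE lay below every control for Sst, as was the case in either direction for 0.582% of all genes tested, and for 0 other members. At a log2 difference of −0.94 (standard error 0.25), limma gave an adjusted p of 0.499, and the exact two-sided permutation test reached p = 0.00126, its lower limit with 792 relabellings. Without 9905 and 9926 the groups were still apart, the log2 difference was −0.51, the adjusted p from limma was 0.839 and the exact permutation p was 0.00833, the smallest that 120 relabellings allow. DESeq2 on the recovered reads called Sst (adjusted p = 0.0212) among the 5 members to which it gave an adjusted p, and 101 of 5898 genes (1.71%), but without 9905 and 9926 it called 2 genes, and Sst was not among them (adjusted p = 0.441). edgeR called 0 genes.

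Cck, which encodes cholecystokinin, was 11716, 8158, 37811, 8804 and 19762 in the controls, in the same order, and from 4876 to 13856 with a median of 8449 in the libraries labelled Ftl1 OE. Pvalb was 359, 225, 970, 214 and 473 in the controls and from 75.2 to 296 with a median of 243 in the other group. Npy was 2130, 2285, 4694, 1517 and 3928 in the controls and from 877 to 2610 with a median of 1834 in the other group. For Sst and these 3 genes, 9905 was the highest of all 12 libraries and 9926 the second highest, and with both left out the log2 differences moved from −0.74 to −0.13 for Cck, from −0.98 to −0.42 for Pvalb and from −0.60 to −0.15 for Npy. Gad1 was 2968, 3323, 1685, 3764 and 1764 in the controls and from 2078 to 4367 with a median of 3205 in the other group. Here 9905 and 9926 were the 2 lowest libraries, the groups overlapped, and the log2 difference of 0.29 turned to −0.091 without them. Lhx6 was 176, 108, 0, 73.8 and 44.1 in the controls and from 125 to 360 with a median of 155 in the other group. Vip was 261, 532, 0, 188 and 95.1 in the controls and from 93.4 to 434 with a median of 301 in the other group. Neither gene had a read in 9905, where 3 reads are a CPM of 0.239, and without 9905 and 9926 the log2 difference of Lhx6 fell from 2.36 to 0.73 and that of Vip turned from 1.81 to −0.16. Gad2 ran from 163 to 830, Slc32a1 from 22.1 to 183 and Reln, the gene of the secreted protein reelin, from 164 to 607 over all 12 libraries, with overlap between the groups for each. Of the 10 members, 4 were higher and 6 lower, with a median log2 difference of −0.54 beside 0.095 over all genes tested, and without 9905 and 9926 2 were higher and 8 lower, with a median of −0.16 beside −0.048.

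**Figure D2:**
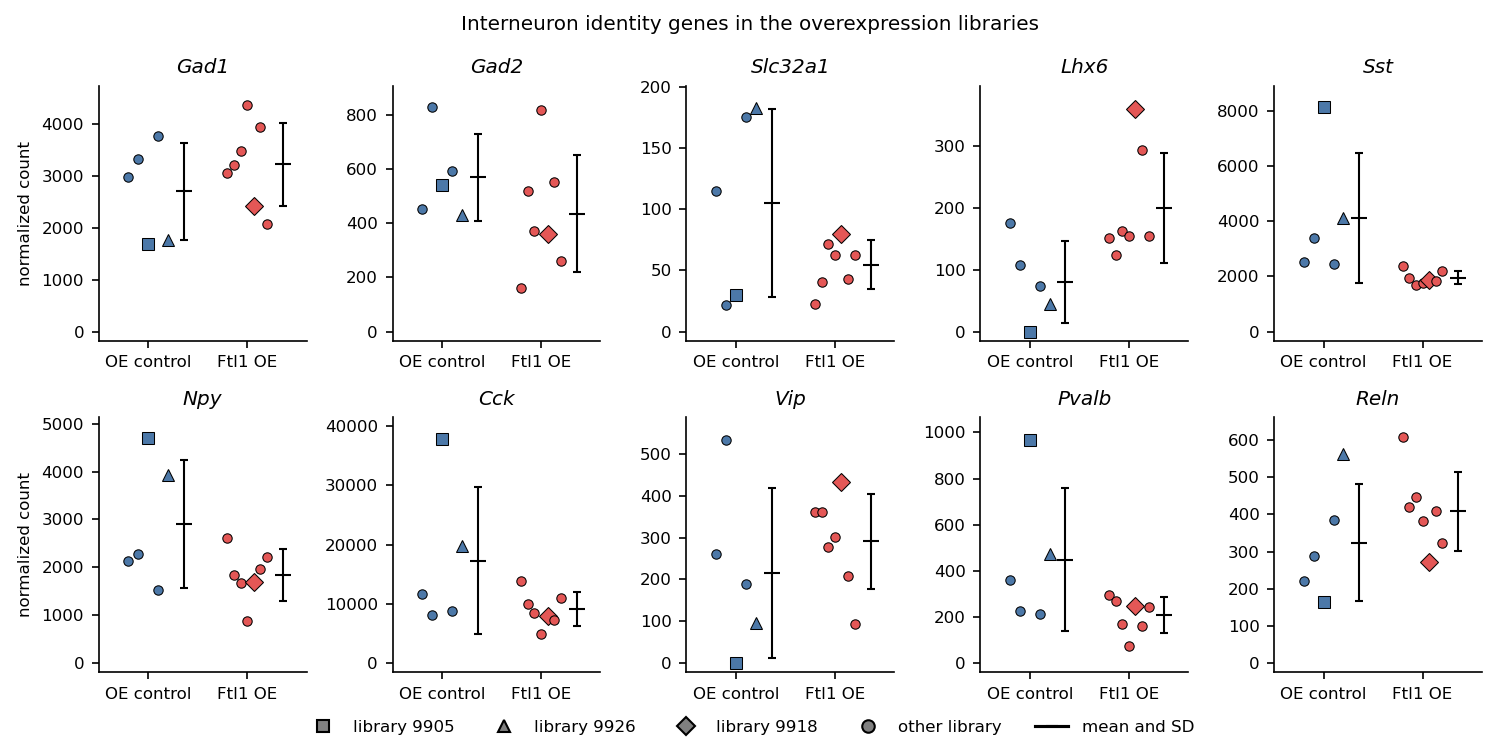
Normalized counts of the 10 members in 5 OE control libraries and 7 libraries labelled Ftl1 OE, 1 panel per gene, with a point for each library, other symbols for libraries 9905, 9926 and 9918, and a bar for the mean and SD of each group. Libraries 9905 and 9926 are highest for Sst, Npy, Cck and Pvalb and lowest for Gad1, and Sst is the 1 gene whose groups do not overlap.

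How the members vary together was asked over the 12 overexpression libraries, from deviations from the group mean, in 13 relations of Gad1 with the other members, Slc17a7 (the vesicular glutamate transporter of excitatory neurons), Rbfox3, Malat1 and total reads. Gad1 went down where Pvalb went up, with Pearson r = −0.822 and Spearman rho = −0.860 (permutation p = 0.00232 and 6.7e-04, adjusted p = 0.0224 and 0.00435). Slc17a7 gave r = −0.844 and rho = −0.923 (permutation p = 0.00395 and 4.1e-04, adjusted p = 0.0224 and 0.00435). For Cck, r was −0.811 and rho −0.888 (permutation p = 0.00518 and 0.00141, adjusted p = 0.0224 and 0.00611). Npy gave r = −0.793 and rho = −0.839 (permutation p = 0.00690 and 0.00444, adjusted p = 0.0224 and 0.0115), and Sst r = −0.712 and rho = −0.832 (permutation p = 0.0120 and 0.00401, adjusted p = 0.0311 and 0.0115). Pvalb, Cck, Npy and Sst thus ran opposite to Gad1 and on the same side as an excitatory gene, whereas Vip (r = 0.605, rho = 0.510) and Reln (r = 0.213, rho = 0.238) did not in the 12 libraries. With Gad2, the second GABA enzyme, r was 0.537 and rho 0.657 (permutation p = 0.0541 and 0.0223, adjusted p = 0.10 and 0.0483). The 2 libraries whose level of Gad1, before the group mean was taken off, lay farthest from the median were 9905 and 9926, and without them r was −0.724 for Pvalb (permutation p = 0.0307), −0.675 for Slc17a7 (0.0714), −0.615 for Cck (0.0992), −0.581 for Npy (0.122), −0.428 for Sst (0.195) and 0.622 for Gad2 (0.0966). The 5 negative relations were thus weaker without those 2 libraries, and that with Gad2 was not. Without them Vip gave r = 0.257 and rho = −0.0909, Reln r = 0.507 and rho = 0.455, and Lhx6 turned from r = 0.516 and rho = 0.566 to r = −0.227 and rho = −0.176. Slc32a1, Lhx6, Vip, Reln, Rbfox3, Malat1 and total reads gave adjusted p-values from 0.0572 to 0.993 for r and from 0.112 to 0.795 for rho. Malat1 was lowest in 9905 and 9926, and its part in these relations was not tested.

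**Figure D3:**
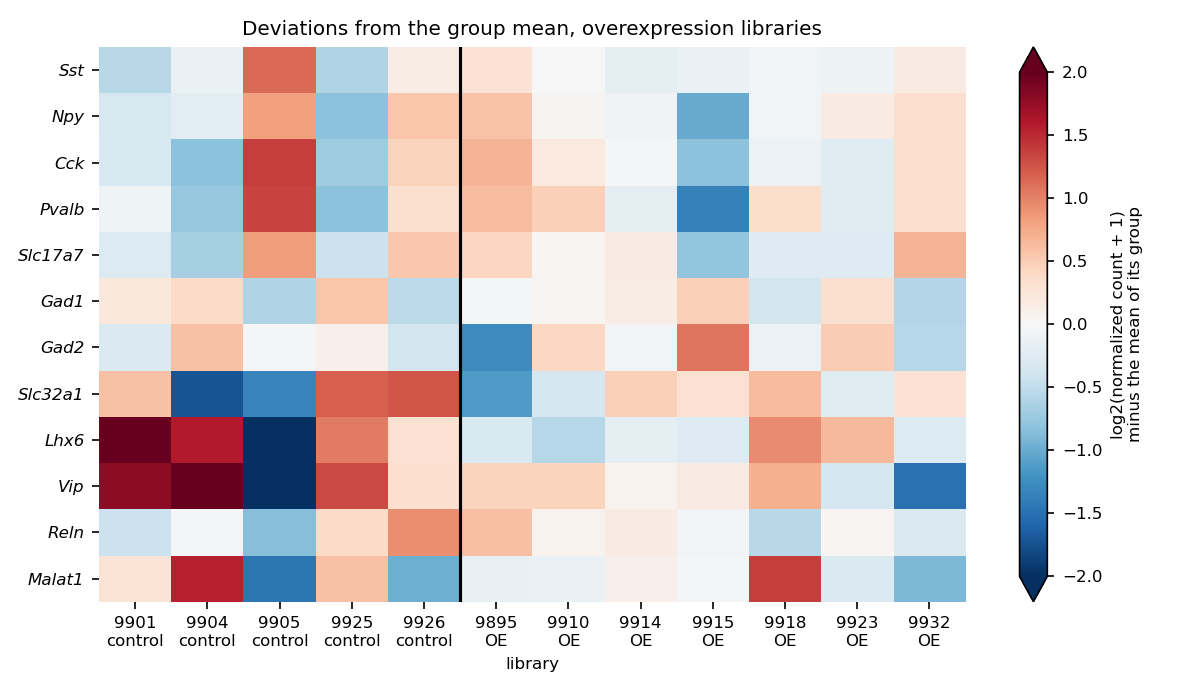
Deviations of log2(normalized count + 1) from the mean of the group, for the 10 members, Slc17a7 and Malat1 (rows) in 12 overexpression libraries (columns), with red above and blue below the mean and colours ending at 2 in each direction. Sst, Npy, Cck, Pvalb and Slc17a7 are above the mean in 9905 and 9926, where Gad1 and Malat1 are below it.

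Genes most like the mean deviation of Gad1, Gad2 and Slc32a1 over the 12 libraries, among those with a mean of at least 100 that are not members, were Sln (r = 0.908), Fhl1 (0.891), Calb2 (0.885), Hes1 (0.854), Dynlt1c (0.852), Maml3 (0.851), Tcf12 (0.850), Ctdp1 (0.831), Ano2 (0.827) and Zfp532 (0.826), given as a description over 12 libraries with no p. Calb2 encodes calretinin, itself a marker of some interneurons. In the order of all 10475 genes with that mean, members included, Gad2 (427, r = 0.604) and Gad1 (565, r = 0.575) did not lead although they are part of the profile, which also holds Slc32a1, the gene with the largest residual SD of the 3 (1.02, against 0.64 for Gad2 and 0.45 for Gad1). Lhx6 ranked 1159, Vip 1556 and Reln 3874, whereas Sst (10388), Cck (10393), Pvalb (10405) and Npy (10451) stood near the end. Even the 3 genes of GABA synthesis and loading did not vary as 1 block, since Gad1 and Slc32a1 gave r = 0.00291.

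In the knockdown table, 4 members (Gad1, Cck, Sst and Npy) passed the filter of a mean of at least 10. Gad1 rose and Cck fell in the libraries labelled Ftl1 KD, so that 2 of the 4 passed an adjusted p of 0.05 with limma, beside 24.2% of the 1460 genes tested (10.5% higher and 13.7% lower). KD controls 1, 2, 3 and 5 held 17, 19.8, 11.2 and 4.18 normalized counts of Gad1, against 27.8, 33.4, 41.9 and 33.8 for Ftl1 KD 1, 3, 4 and 5. Every library labelled Ftl1 KD lay above every control for Gad1, as was the case in either direction for 23.8% of the genes tested. The means were 13 ± 6.89 and 34.2 ± 5.80 (SD, n = 4 each), from 6 to 49 reads per library, with a log2 difference of 1.49 (standard error 0.36, adjusted p = 0.00380 from limma), and the exact two-sided permutation test reached its smallest possible p of 0.0286. Leaving out any single library gave differences between 1.07 and 1.74, and Gad1 was called in all 17 alternatives that tested it. Gad2 was 2.83, 10.5, 3.74 and 1.67 in the controls and 6.71, 14.4, 12.8 and 22.0 in the other group. Gad2 lay in the same direction, with overlap between the groups and an exact two-sided permutation p of 0.0571, and its mean of 9.33 was below the filter.

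For Cck the KD controls gave 82.1, 62.9, 30.0 and 62.3, and the 4 libraries labelled Ftl1 KD gave 31.6, 25.3, 36.4 and 29.4. All but control 3 lay above every library of the other group. At a log2 difference of −0.85 (standard error 0.28), limma gave an adjusted p of 0.0273, with p = 0.0857 by exact two-sided permutation test. The call of Cck was lost under median centring (−0.74, adjusted p = 0.0519 from limma), with the replicate number as a block (adjusted p = 0.0905), without a filter (0.0834) and without any one of controls 1, 2 and 5 or Ftl1 KD 1, 3 and 5 (0.0507 to 0.106). Sst was 17.9, 27.8, 15 and 14.2 in the controls and 13.4, 18.9, 10.9 and 13.2 in the other group, and Npy 4.72, 10.9, 7.49 and 13.8 against 16.3, 9.02, 16.4 and 10.3. The groups overlapped for both, at log2 differences of −0.36 and 0.50 (adjusted p = 0.457 and 0.425 from limma). Among the members below the filter, Lhx6 ran from 0 to 10.9, Reln from 1.82 to 15, Slc32a1 from 0 to 3.63 and Pvalb from 0 to 2.93, with overlap for each. Vip had 0 reads in all 4 libraries labelled Ftl1 KD, where 3 reads are a CPM of 30.9 to 61.3, and 0 to 5 reads in the controls, so that no difference was detectable at this depth.

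**Figure D4:**
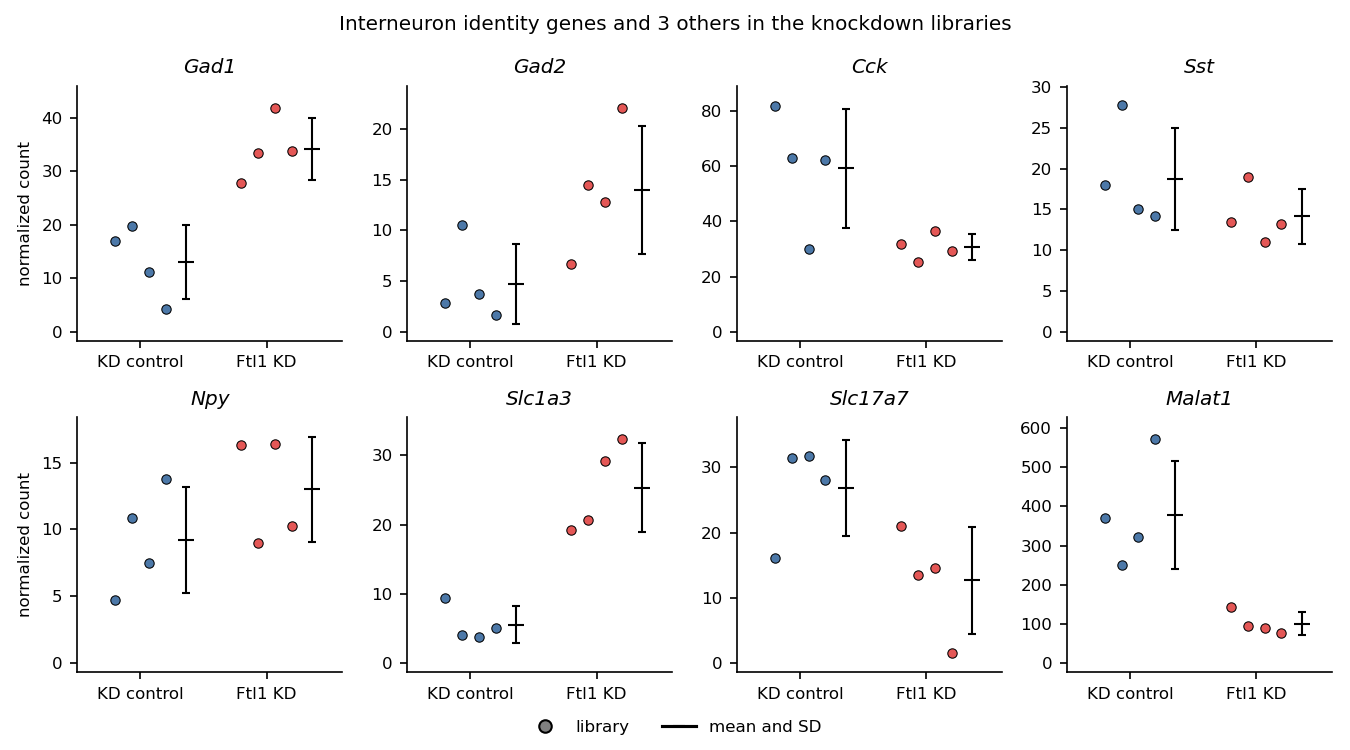
Normalized counts of 5 members and of Slc1a3, Slc17a7 and Malat1 in 4 KD control libraries and 4 libraries labelled Ftl1 KD, with a point for each library and a bar for the mean and SD of each group. Gad1 and Slc1a3 are higher and Malat1 lower in every library labelled Ftl1 KD than in every control, and Cck overlaps through KD control 3.

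Genes of other cell types also differed between these groups. Excitatory markers went opposite to Gad1, with 2 of 6 tested and 1 called lower, Slc17a7 (26.8 ± 7.40 against 12.7 ± 8.18, SD, n = 4 each, adjusted p = 0.0327 from limma), and with Camk2a as the most abundant gene. Their summed level was 127, 142, 91.8 and 140 in the controls and 84.4, 92.9, 89.3 and 83.7 in the other group. C1ql2 of dentate granule cells (log2 difference −1.49, adjusted p = 0.00130 from limma) and Fibcd1 of CA1 (−1.47, adjusted p = 0.00276 from limma) also fell, each as the 1 gene called of its list. Gad1 per 100 counts of Slc17a7 was 106, 62.8, 35.3 and 14.9 among controls, against 132, 247, 288 and 2300 with the Ftl1 KD label, the last from 1 read of Slc17a7. Cck per count of Gad1, which does not depend on the scaling of a library, was 4.83, 3.18, 2.67 and 14.9 in the controls and 1.14, 0.757, 0.870 and 0.870 in the other group, a ratio chosen after its values were seen.

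Some astrocyte, oligodendrocyte and RNA measures differed as well. Slc1a3, the glutamate transporter of astrocytes, rose from 5.56 ± 2.64 to 25.3 ± 6.39 (SD, n = 4 each, adjusted p = 5.4e-04 from limma). Of the 6 astrocyte genes, 4 had a higher and 2 a lower mean in the libraries labelled Ftl1 KD, and Slc1a3 alone was called. Aldh1l1 (2.72 ± 2.28 to 9.32 ± 3.37), Gja1 (2.72 ± 0.797 to 5.08 ± 2.82) and Aqp4 (0.983 ± 0.787 to 2.74 ± 1.65) had higher means but were below the filter and not tested. Aldoc, the most abundant and the 1 other gene tested, went from 22.8 ± 9.56 to 18.3 ± 5.73 (log2 difference −0.27, adjusted p = 0.595 from limma) and Gfap, below the filter, from 11 ± 5.68 to 4.80 ± 0.962. The summed level of the 6 astrocyte genes was 56.6, 60.1, 28.1 and 38.5 in the controls and 66.2, 59.5, 69.2 and 67.6 in the other group. Mbp of oligodendrocytes fell from 36.8 ± 10.7 to 9.61 ± 3.84 (SD, n = 4 each, adjusted p = 4.3e-04 from limma), and the summed level of the 6 oligodendrocyte genes, led by Mbp, was 43.4, 67.4, 52.4 and 34.3 against 13.4, 17.1, 10.9 and 7.35. Malat1, Meg3 and Rn45s fell as well, with log2 differences of −1.87, −1.59 and −1.0045 (adjusted p = 5.5e-06, 8.7e-05 and 0.00908 from limma). Rn45s took 31.9% to 55.3% of the reads in the controls and 30.3% to 34.5% in the libraries labelled Ftl1 KD. The part of cell mixture, depth and RNA content in the difference of Gad1 was not tested.

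Side by side, Gad1 differed by −0.37 between aged and young, by 0.29 between libraries labelled Ftl1 OE and their controls, and by 1.49 between libraries labelled Ftl1 KD and theirs, on the log2 scale. Cck differed by 0.48, −0.74 and −0.85, and Sst by 0.65, −0.94 and −0.36, in the same order. Without 9905 and 9926, the overexpression values were −0.091 for Gad1, −0.13 for Cck and −0.51 for Sst. Leaving out each library in turn moved the aging value of Gad1 between −0.57 and −0.16 and that of Cck between 0.20 and 0.70. For Sst the range was 0.50 to 0.77 in aging and −0.50 to −0.16 in knockdown. Differences between the comparisons were not tested, and they share no libraries. At the filter of a mean of at least 10, Gad1 and Cck passed limma's threshold, both in the shallow knockdown table, where 6 of the 10 members were not tested.

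**Figure D5:**
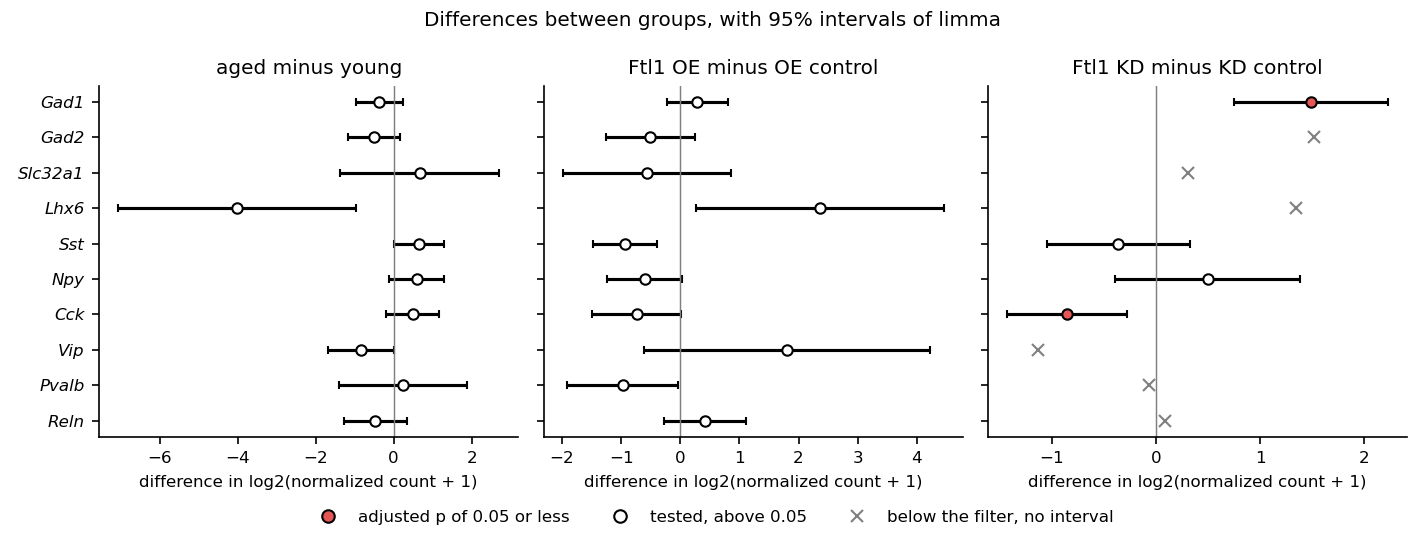
Differences in log2(normalized count + 1) between the groups of each table for the 10 members, with 95% intervals of limma (horizontal bars), where filled circles mark an adjusted p of 0.05 or less and crosses mark members below the filter. Gad1 at 1.49 and Cck at −0.85 in the knockdown table are the filled circles, and the wide intervals of Lhx6 and Vip come from libraries with 0 reads.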

How the data were processed

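RNA of sorted neuronal nuclei was measured in 25 libraries, grouped by GEO's genotype and age labels and, for KD controls, titles. The authors aligned reads to the mm10 transcriptome with STAR, quantified genes with RSEM and normalized counts with DESeq2, per the study's methods and the submitters' processing notes. The methods describe a modified Smart-seq2 protocol, whereas the sample records describe strand-specific libraries of polyadenylated RNA. The authors deposited 3 tables of normalized counts (a signal), each normalized separately, with 6 columns of their own comparison (mean, log2 fold change, its standard error, test statistic, p-value and adjusted p-value), which were not used. Dividing each library by its smallest step gave whole reads, within 0.1 of a read, for 100% of values in every library.

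Groups were compared with limma 3.58.1 (R 4.3.3) on log2(normalized count + 1), with a variance trend, over genes with a mean of at least 10, with Benjamini-Hochberg adjustment over all genes tested and a threshold of 0.05. Fold changes on this scale understate changes of low genes. edgeR 4.0.16 and DESeq2 1.42.0 were run on the recovered reads. The models were checked on simulated counts. Single members were tested by exact two-sided permutation, and correlations by 100000 permutations within groups. Other alternatives were pseudocounts of 0.5 and 5, no filter, a mean of at least 100, TMM scaling, median centring, the replicate number as a block, a fold change limit for aging, and leaving out each library. No library was a copy of another of its group (lowest chi-square per degree of freedom 25.4, 38.8 and 1.41 in the aging, overexpression and knockdown tables). CPM denotes reads scaled to libraries of equal total (1e6 reads). Values of 3 reads as a limit, and SDs from counting, cover counting error only. Exact p-values give the share of relabellings of the libraries, 1 for each mouse, with a mean difference at least as large as the one found.

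Named were all members, genes of the lists that passed the test, otherwise each list's most abundant gene and its genes at 0, and the 10 genes most like the members. The lists covered interneuron transcription factors and subtype genes, excitatory neurons, dentate granule cells, CA1, CA3, Cajal-Retzius cells, neighbouring regions, astrocytes, oligodendrocytes and their precursors, endothelial cells, Rbfox3, and nuclear and ribosomal RNA. Members and lists were chosen with earlier results of these data known. Positions and transcript lengths came from GENCODE M21 (build GRCm38, the same as mm10), and promoters from RefSeq. Plots used Python 3.11.15 and matplotlib 3.10.9.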

Additional observations from a re-analysis of the deposited data

Results flagged for a closer look

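In groups of 4 to 10 libraries, a library was marked where its gap to the nearest other library, divided by the range of its group on the log2 scale, passed Dixon's critical value. Of 39 groups of values tested, 3 were marked, and chance marks about 1 in 20. OE control 9905 was lowest for Lhx6 (0 reads, against 44.1 normalized counts in the next library), with a ratio of 0.736. The same library was lowest for Vip (0 reads, against 95.1), with a ratio of 0.727. Library 9915, labelled Ftl1 OE, was lowest for Npy (877 against 1673), with a ratio of 0.592.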

How the results depend on the processing

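Of 535 values recomputed under other settings, 502 kept their direction and their side of the threshold or, for counts, stayed within 1.5 times. With DESeq2, 138 genes in aging and 101 in overexpression were called, the latter with 1 member (Sst, −1.08). With 9905 and 9926 left out, settings added after the data were seen, DESeq2 called 2 genes in overexpression, Gad1 turned to −0.091 with limma and −0.050 with DESeq2, and Vip turned to −0.16 with both. In aging, leaving out each library gave differences from −0.99 to 0.049 for Reln and from −0.10 to 0.58 for Pvalb, and both turned without aged replicate 2. With each library left out in turn, between 0 and 1 genes were called in overexpression (1 without OE control 9925) and between 1 and 2 members in knockdown. The members called in knockdown numbered 1 of 10 without a filter (334 of 13393 genes), 1 under median centring and 0 with a mean of at least 100, which no member reached and which left 29 genes, 18 of them called. A mean of at least 5, added later, called 3 of 6 members (Gad1, Cck and Gad2) and 406 of 3163 genes. Median centring moved the median log2 difference of all genes in knockdown from −0.012 to 0.098 and the calls from 154 higher and 200 lower to 197 and 161, with Gad1 at 1.6 and Cck at −0.74. With the replicate block, 173 genes and 1 member were called in knockdown and 0 in aging. Same-numbered libraries did not deviate together (correlations of −0.034, −0.020 and −0.052 in knockdown and −0.054 and 0.024 in aging), but so few pairs cannot show whether the samples were paired. The cause of these changes was not tested. In the knockdown table, 6 of the 10 members were below the filter.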

Other observations

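In the aging and overexpression tables, limma called 0 genes of any list. Interneuron transcription factors had 14 of 17 genes tested in aging (5 higher and 9 lower, median log2 difference −0.14, led by Satb1, with Nkx2-1 at 0) and 16 in overexpression (12 higher and 4 lower, median 0.64, led by Prox1, which granule cells also express). In overexpression the summed level of this list averaged 2006 ± 582 in 5 controls and 2005 ± 373 in 7 libraries labelled Ftl1 OE (SD). It was lowest in 9905 (1109), and its difference between groups was not tested. Without 9905 and 9926 the median log2 difference turned to −0.33 (6 higher and 10 lower). None was tested in knockdown, where Npas1 led and Dlx6, Sp8 and Sp9 had 0 reads. Among 27 interneuron subtype genes, 13 were higher and 13 lower in aging (led by Kcnc2) and 13 higher and 12 lower in overexpression (led by Penk, with Chodl at 0), which became 4 higher and 21 lower without 9905 and 9926. In knockdown, Kcnc1, a potassium channel of fast-spiking cells, was the 1 subtype gene tested and fell from 19.6 ± 8.09 to 5.19 ± 1.37 (SD, n = 4 each, log2 difference −1.68, adjusted p = 0.00751 from limma), opposite to Gad1, and Crh had 0 reads. The summed level of the 27 subtype genes, led by Kcnc1, was 89.7, 112, 93.6 and 107 in the KD controls and 58.5, 64.9, 51.0 and 72.0 with the Ftl1 KD label, also with no overlap and opposite to Gad1. Single genes of this list went either way. The mean of Nxph1 rose from 2.23 ± 1.02 to 9.92 ± 5.31 and that of Nos1 fell from 8.57 ± 7.60 to 1.52 ± 1.54 (SD, n = 4 each). Both were below the filter and not tested. The part of this list in the difference of Gad1 was not tested either.

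Cajal-Retzius markers, of interest for Reln, had 1 of 6 genes tested in each of aging and overexpression, led by Trp73, and Lhx5 and Ebf3 had 0 reads in aging. Excitatory, dentate granule, CA1 and CA3 lists had median log2 differences of 0.34, 0.44, 0.024 and 0.22 in aging (led by Camk2a, C1ql2, Fibcd1 and Grik4) and of 0.031, −0.038, 0.18 and 0.067 in overexpression (led by Slc17a7, C1ql2, Wfs1 and Bok). The medians for neighbouring regions, led by Ttr, were −1.17 and −0.48. In overexpression, astrocyte genes (led by Aldoc), oligodendrocyte genes (Mbp), their precursors (Cspg4) and endothelial cells (Cldn5, 1 gene tested) had medians of 0.52, 0.17, −0.26 and 1.14, and in aging −0.37, −0.67, −1.01 and 0.11, where Pdgfra led the precursors and Pecam1 had 0 reads. Rbfox3 differed by 0.41 in aging and −0.096 in overexpression, and the nuclear and ribosomal RNAs, led by Rn45s, had medians of 0.15 and 0.16, with Rn45s at 0.88 and −0.42. Without 9905 and 9926 the overexpression medians were −0.020, −0.28, 0.12 and −0.062 for excitatory, granule, CA1 and CA3 genes, −0.66 for neighbouring regions, −0.0060, −0.22, −0.34 and 1.27 for astrocytes, oligodendrocytes, their precursors and endothelial cells, −0.28 for Rbfox3 and 0.13 for the RNAs. In knockdown, 0 genes of the lists for CA3 (led by Grik4), Cajal-Retzius cells (Nhlh2, with Lhx1, Lhx5 and Cxcr4 at 0), oligodendrocyte precursors (Cspg4), endothelial cells (Cldn5, with Flt1 and Pecam1 at 0) and Rbfox3 passed the filter, 1 of the neighbouring regions did (median 1.55, not called), and Tdo2 of dentate granule cells had 0 reads.

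Sst per count of Gad1 was 0.374, 0.455 and 0.426 in the young and 0.953 and 0.743 in the aged libraries, and 1.06, 1.41, 1.33 and 3.40 in the KD controls against 0.483, 0.568, 0.261 and 0.391 in the libraries labelled Ftl1 KD. The ratio was chosen after its values were seen and was not tested. In overexpression it was highest in 9905 (4.85) and 9926 (2.34) and ran from 0.406 to 1.055 in the other libraries.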
